A study of Mus musculus with 224 samples.

Results

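The livers of 8 DBA/2J mice sampled on day 5 were compared here, 4 on a high-fat diet (HFD) and 4 on regular chow (RC). They are 8 of the 72 liver libraries analysed of a series on 3 inbred mouse strains (DBA/2J, BALB/cJ and C57BL/6J), 3 tissues (liver, soleus muscle and visceral adipose tissue) and 3 sampling days. The 8 libraries were chosen by the sample labels for tissue, strain (spelled DBA/2JJ there), diet and time (D05), and their titles carry the same 4 numbers in each diet, so that they are called HFD-200 to HFD-203 and RC-200 to RC-203 below. The labels used here name no genotype change, drug, sex or age, and DBA/2J is a single inbred line. The third time label is D33, whereas the series text gives 13 days for it; day 33 is used below. A further 8 liver libraries without a column in the liver table were not analysed here.

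Transcripts were counted by RNA sequencing of bulk tissue (stranded mRNA libraries, single reads of 100 bases, RNA quality numbers of 8.2 to 9.3). The HFD libraries held 20.3 to 28.3 M counted reads and the RC libraries 23.1 to 29.4 M. Levels are given as log2 CPM, the log2 of CPM (read counts divided by library size, after a scaling factor per library). A fold change is HFD against RC, with its standard error (SE) from 1 limma fit over all 72 liver libraries, and the two-sided p-values carry a Benjamini-Hochberg adjustment over all 12611 genes of the table. A gene is said to have risen or fallen when its adjusted p from limma was under 0.05. The p-values measure the spread between libraries; nothing in the labels says whether the animals shared a cage or litter. In bulk tissue, fewer cells of a type and less RNA per cell cannot be told apart.

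Liver takes up the fatty acids of a fat-rich meal and burns, stores or exports them. The nuclear receptor PPAR alpha is activated by fatty acids and, paired with the receptor RXR, raises transcription of genes for fatty acid activation, transport into mitochondria and peroxisomes, oxidation and ketone body synthesis. Its binding motif is a direct repeat of the half-site AGGTCA spaced by 1 base, called DR1. Complement factors and acute phase proteins are further large outputs of liver, and they and interferon-stimulated genes follow infection and inflammation.

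Single libraries stood apart within their group. HFD-202 had a Dbp level of 0.92 log2 CPM against 6.49 to 7.44 in the other HFD libraries (Dbp is a transcription factor driven by the circadian clock), and it also had the lowest Thrsp, Upp2 and Ciart levels and the highest Arntl and Cdkn1a levels of the 8. RC-203 had Saa1 at 9.97 and Saa2 at 8.78, both acute phase proteins, against 4.65 to 6.28 and 2.21 to 3.30 in the other RC libraries. RC-200 and HFD-200 had the highest Fabp4 levels, 7.21 and 4.60, and the highest summed level of 7 skeletal muscle markers, 611 and 432 CPM against 7.78 to 81.3 CPM in the other 6 libraries. Counts for the main gene lists are therefore also given without the libraries concerned. The hepatocyte markers Alb, Apoa1, Apob and Ttr were measured in all 8 libraries, and the summed level of 10 hepatocyte markers was 110825 to 117536 CPM on HFD and 117262 to 132784 CPM on RC.

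**Figure D1:**
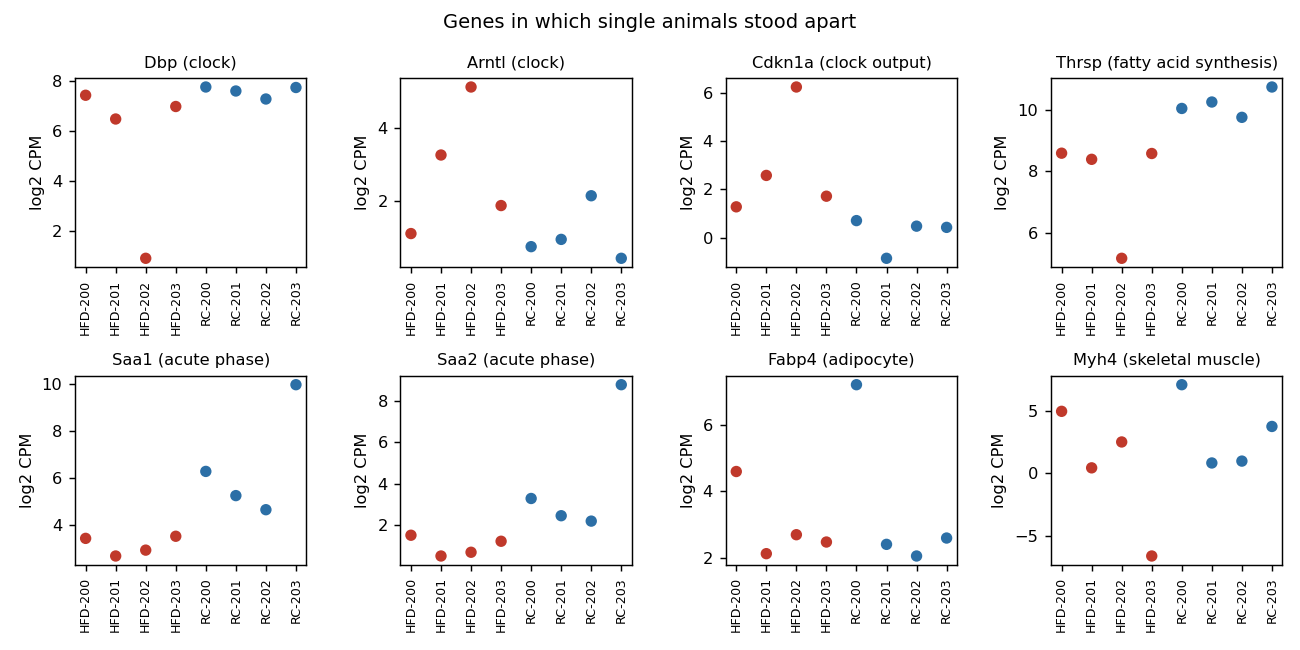
Level (log2 CPM, vertical axis) of 8 genes in each of the 8 libraries (horizontal axis, red HFD, blue RC). HFD-202 is lowest for Dbp at 0.92, RC-203 is highest for Saa1 at 9.97, and RC-200 is highest for Fabp4 at 7.21.

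On HFD, genes that oxidise fatty acids were higher in DBA/2J liver by day 5. The fatty acid hydroxylase gene Cyp4a14 was 223-fold and the peroxisomal enzyme gene Ehhadh 10.8-fold higher. Some genes of the interferon response, of complement and of the urea cycle were lower, among them Irf7 with a log2 fold change of -1.29, C2 with -1.05 and Ass1 with -0.95. Red blood cell genes were lower too, such as Hbb-bt with -2.20. In all, 433 genes (3.43% of those tested) were higher on HFD and 446 (3.54%) were lower. Counts from the gene lists below are to be read beside these shares. The median log2 fold change was 0.67 among the higher, -0.68 among the lower and 0.01 over all genes. A change of at least 1 on the log2 scale was found for 109 of the higher and 128 of the lower genes. The 4 HFD and 4 RC values did not overlap for 1149 genes higher on HFD (9.11%) and 1123 lower (8.90%), among them 805 of the 879 called genes. The diets also differed in a scaling factor, 1.022 to 1.055 on HFD and 0.957 to 1.012 on RC, and the 20 genes with most reads took 23.8 to 24.8% of reads on HFD and 24.8 to 25.9% on RC. With that factor left out, 709 genes were higher and 332 lower (68.1% higher, against 49.3%), and the median of all genes was 0.08. Without HFD-202 the counts were 272 higher and 275 lower (547, of which 521 were among the 879), and without RC-203 they were 268 and 279 (547, of which 543 were among the 879). With all 4 libraries that stood apart left out, 2 per diet, 81 genes were higher and 60 lower, and 138 of these 141 were among the 879. Smaller groups alone lower the number of calls, so a call lost in that fit is not by itself a lost change.

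Genes of fatty acid oxidation rose. Of 28 PPAR alpha target genes, all of them measured, 20 rose and 0 fell, against 3.43% and 3.54% of all genes, and the median log2 fold change was 1.48. The count was 20 without any 1 of the 8 libraries, and 15 when the 4 libraries that stood apart were left out together (median 1.52).

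The largest rises were in the Cyp4a family, cytochromes P450 that hydroxylate the far end of fatty acid chains. Cyp4a14 (ENSMUSG00000028715, chromosome 4, 115486200 to 115496142, GRCm38) stood at 11.87, 12.19, 12.49 and 12.08 on HFD and 3.13, 4.51, 5.42 and 4.37 on RC, in the order of the library numbers, which is kept below. The lowest HFD value was far above the highest RC value, with a ratio of 223 between the diets (log2 fold change 7.80 ± 1.26 (SE), adjusted p = 1.25e-05). Cyp4a10 (ENSMUSG00000066072, chromosome 4, 115518264 to 115533649, GRCm38) stood at 10.71, 11.04, 11.45 and 10.99 on HFD and 2.92, 3.84, 4.67 and 3.54 on RC (log2 fold change 7.31 ± 0.99 (SE), adjusted p = 3.19e-07). Its groups were apart in the same way, with the RC values spread more widely than the HFD values. Cyp4a31 stood at 6.06, 6.70, 6.35 and 6.43 on HFD and -0.82, 0.27, 0.02 and -0.33 on RC (log2 fold change 6.60 ± 0.98 (SE), adjusted p = 2.33e-06), so that on RC it lay near 1 CPM. Cyp4a32 rose by less, from 5.76 ± 0.14 (SD, n = 4) on RC to 8.56 ± 0.23 (SD, n = 4) on HFD (log2 fold change 2.80 ± 0.42 (SE), adjusted p = 2.98e-06). Cyp4a12a, in the same cluster on chromosome 4, had a log2 fold change of 0.00 ± 0.22 (SE) and adjusted p = 0.994, and its groups overlapped. The Cyp4a genes are close copies, and how reads that match several of them were counted is not given in the sources used here, so the split among them is uncertain.

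Acyl-CoA thioesterases, which release free fatty acids from coenzyme A, rose as well. Acot1, the cytosolic enzyme (ENSMUSG00000072949, chromosome 12, 84009490 to 84018371, GRCm38), stood at 6.32, 6.56, 7.47 and 6.32 on HFD and 2.04, 2.38, 2.40 and 2.67 on RC (log2 fold change 4.30 ± 0.54 (SE), adjusted p = 4.96e-08). HFD-202 was the highest of the 4 HFD libraries, and the other HFD values lay close together. Acot2, the mitochondrial form, stood at 4.27, 4.28, 4.92 and 4.07 on HFD and 1.52, 1.15, 1.40 and 1.34 on RC (log2 fold change 3.03 ± 0.54 (SE), adjusted p = 7.66e-05). Acot3 and Acot4 are peroxisomal forms, and Acot3 stood at 5.70, 5.11, 4.85 and 4.05 on HFD and 0.59, 0.84, 0.65 and 2.32 on RC (log2 fold change 3.83 ± 1.06 (SE), adjusted p = 0.016). RC-203 was the highest RC library for Acot3 but still below every HFD library, and the adjusted p for Acot3 was 0.335 with the 4 libraries that stood apart left out. Acot4 stood at 6.82, 6.77, 6.70 and 6.22 on HFD and 4.82, 4.97, 4.71 and 5.11 on RC (log2 fold change 1.73 ± 0.42 (SE), adjusted p = 0.00568). These genes too are neighbouring copies on chromosome 12, and reads could be split among them.

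Peroxisomal beta-oxidation shortens very long fatty acid chains. Its enzymes include the bifunctional enzyme Ehhadh and the thiolases Acaa1a and Acaa1b, and of 32 measured peroxisomal genes 17 rose and 0 fell (median 0.50). Ehhadh (ENSMUSG00000022853, chromosome 16, 21761287 to 21787807, GRCm38) stood at 10.68, 10.99, 11.33 and 10.96 on HFD and 7.52, 7.63, 7.54 and 7.55 on RC. The RC values lay close together, and the ratio between the diets was 10.8 (log2 fold change 3.43 ± 0.37 (SE), adjusted p = 1.20e-09). Acaa1b stood at 11.42, 11.49, 11.71 and 11.50 on HFD and 8.73, 8.68, 8.72 and 8.79 on RC (log2 fold change 2.80 ± 0.32 (SE), adjusted p = 3.48e-09). Its groups were far apart, with the RC values close together. Crat, which moves acetyl groups to carnitine, rose from 5.01 ± 0.18 (SD, n = 4) on RC to 7.27 ± 0.20 (SD, n = 4) on HFD (log2 fold change 2.26 ± 0.31 (SE), adjusted p = 5.10e-07). Slc27a2, a transporter and activator of very long chains, rose by 0.94 ± 0.12 (SE, adjusted p = 4.77e-08), and Pex11a, which divides peroxisomes, by 1.27 ± 0.23 (SE, adjusted p = 1.02e-04). The import receptor Pex5 and catalase (Cat) were among the 15 peroxisomal genes that did not pass. The count of 17 was 9 when the 4 libraries that stood apart were left out, and the median was then 0.54.

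Genes of mitochondrial beta-oxidation, which shortens fatty acids to acetyl-CoA, rose as well. Of 19 genes 15 rose and 0 fell (median 0.86), and 12 rose with the 4 libraries that stood apart left out (median 0.80). Eci1, an isomerase for unsaturated chains (ENSMUSG00000024132, chromosome 17, 24426641 to 24439348, GRCm38), stood at 7.64, 7.42, 7.85 and 7.53 on HFD and 6.07, 6.16, 6.12 and 6.21 on RC (log2 fold change 1.47 ± 0.16 (SE), adjusted p = 9.19e-10). The long-chain acyl-CoA dehydrogenase Acadl stood at 8.66, 8.54, 8.68 and 8.73 on HFD and 7.56, 7.50, 7.48 and 7.62 on RC (log2 fold change 1.12 ± 0.12 (SE), adjusted p = 2.80e-09). For both, each HFD value was above all RC values. The very-long-chain enzyme Acadvl rose by 0.72 ± 0.08 (SE, adjusted p = 2.85e-09), the trifunctional protein subunit Hadhb by 1.03 ± 0.12 (SE, adjusted p = 9.86e-09) and the electron carrier dehydrogenase Etfdh by 0.95 ± 0.12 (SE, adjusted p = 4.42e-08). Cpt1a, which loads fatty acids onto carnitine at the outer membrane, stood at 9.02, 9.06, 8.54 and 9.25 on HFD and 8.60, 8.59, 8.63 and 8.74 on RC. Its groups overlapped through HFD-202, and its adjusted p was 0.39. Echs1, Etfa and Etfb were the other genes that did not pass.

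Ketone bodies are made from the acetyl-CoA that oxidation yields, and 5 of 8 genes of their synthesis and use rose (median 0.57). Among them, Bdh1, which interconverts the ketone bodies, stood at 8.91, 8.73, 8.76 and 9.05 on HFD and 8.26, 8.25, 8.39 and 8.40 on RC (log2 fold change 0.53 ± 0.14 (SE), adjusted p = 0.00932). The thiolase Acat1 stood at 9.57, 9.35, 9.67 and 9.49 on HFD and 8.81, 8.89, 8.77 and 8.74 on RC (log2 fold change 0.72 ± 0.13 (SE), adjusted p = 1.28e-04) and the transporter Slc16a1 at 6.17, 6.51, 6.80 and 6.37 on HFD and 5.72, 5.60, 5.85 and 5.62 on RC (log2 fold change 0.77 ± 0.20 (SE), adjusted p = 0.0105). The groups did not overlap for any of these 3 genes. Slc16a1 had an adjusted p of 0.071 without HFD-202. With the 4 libraries that stood apart left out, 1 of the 5 passed.

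Other PPAR alpha targets and oxidation genes rose outside these pathways. Vnn1, which releases pantothenate for coenzyme A, stood at 7.90, 7.60, 7.78 and 8.05 on HFD and 4.59, 4.49, 4.51 and 5.10 on RC (log2 fold change 3.16 ± 0.53 (SE), adjusted p = 2.73e-05). Aldh3a2, which oxidises fatty aldehydes, stood at 9.39, 9.26, 9.54 and 9.66 on HFD and 7.01, 6.68, 6.71 and 6.88 on RC (log2 fold change 2.64 ± 0.28 (SE), adjusted p = 9.19e-10). Hsdl2, a peroxisomal protein of the short-chain dehydrogenase family, stood at 7.28, 7.41, 7.74 and 7.45 on HFD and 5.77, 5.82, 5.82 and 5.75 on RC (log2 fold change 1.68 ± 0.18 (SE), adjusted p = 9.19e-10). In all 3 genes the gap between the groups exceeded the range within either group. Retsat, a retinol saturase, rose by 2.20 ± 0.26 (SE, adjusted p = 1.35e-08) and the acyl-CoA synthetase Acsl1 by 1.30 ± 0.20 (SE, adjusted p = 6.94e-06).

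The PPAR alpha targets that did not pass were Cyp4a12a, Pdk4, Cpt1a, Fgf21, Angptl4, Fabp1, Creb3l3 and Cd36. Fgf21, a fasting hormone of liver, stood at 3.52, 3.50, 5.34 and 3.43 on HFD and 2.07, 2.45, 3.58 and 2.40 on RC (log2 fold change 1.32 ± 0.69 (SE), adjusted p = 0.26), and HFD-202 was its highest library. Pdk4, which limits glucose oxidation, stood at 3.74, 3.27, 4.94 and 2.50 on HFD and 3.92, 1.45, 1.80 and 1.32 on RC (log2 fold change 1.49 ± 0.80 (SE), adjusted p = 0.279). For Pdk4, RC-200 lay above 3 of the HFD libraries. The fatty acid carrier Fabp1 and the uptake receptor Cd36 had log2 fold changes of 0.54 ± 0.23 and 1.34 ± 0.57 (SE, adjusted p = 0.14 and 0.154). Ppara itself stood at 6.67, 6.75, 6.26 and 6.64 on HFD and 6.18, 6.24, 6.37 and 5.76 on RC (log2 fold change 0.44 ± 0.22 (SE), adjusted p = 0.247), with overlapping groups. Among 26 nuclear receptors and coregulators 1 rose, a share near the 3.43% of all genes. It was Nr1i3 (the receptor CAR), at 7.60, 7.39, 7.63 and 6.71 on HFD and 6.15, 6.50, 6.23 and 6.28 on RC (log2 fold change 1.04 ± 0.25 (SE), adjusted p = 0.00411). Nr1i3 did not pass with the 4 libraries that stood apart left out.

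**Figure D2:**
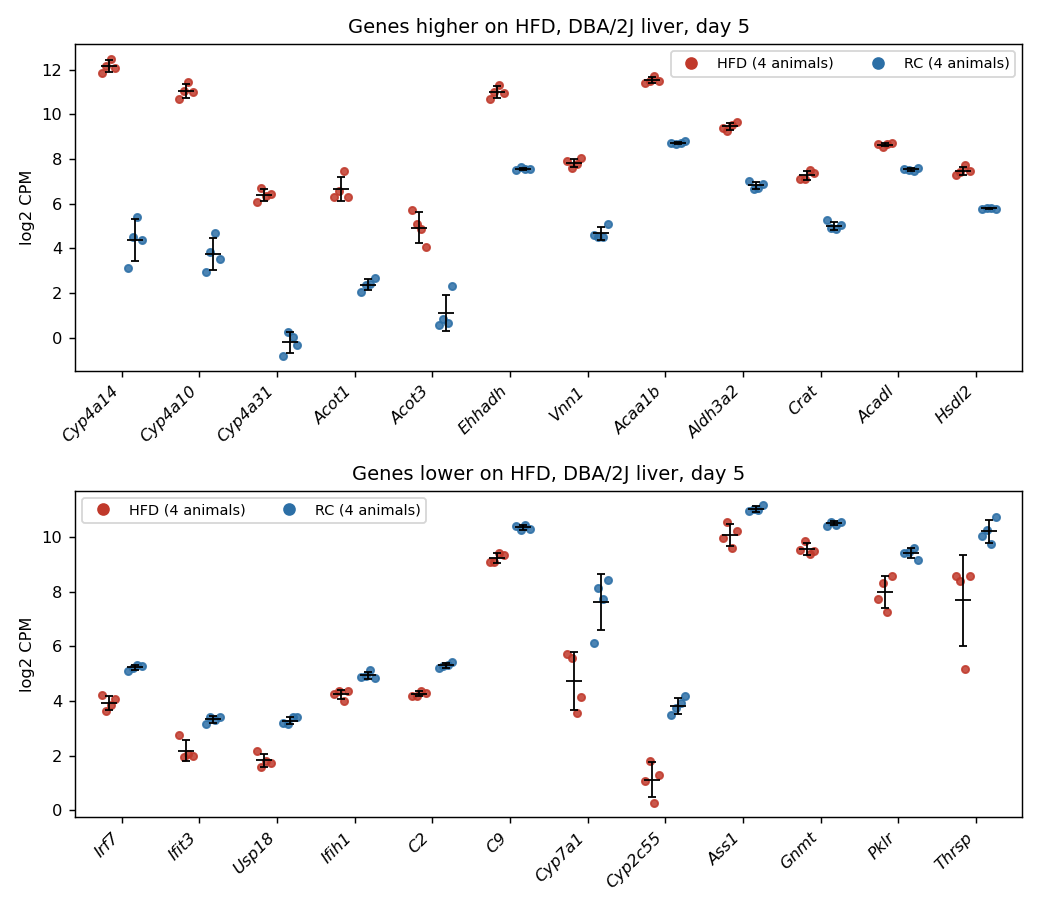
Level (log2 CPM, vertical axis) of 12 genes that rose (top) and 12 that fell (bottom); red points are the 4 HFD and blue points the 4 RC libraries, black marks the mean ± SD. Cyp4a14 lies between 11.87 and 12.49 on HFD and between 3.13 and 5.42 on RC, and Thrsp shows HFD-202 at 5.16 below the other HFD libraries.

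Promoters were searched because the PPAR alpha targets rose together. A promoter window runs from 250 bases before to 50 bases after a gene's start (RefSeq, GRCm38.p6), and 20 of the 28 targets had one. A DR1 match (AGGTCANAGGTCA on either strand, at most 2 differing bases) was in the windows of 6 targets, and in 3.86% of all 32817 windows of that length. The target count is of genes and the share is of windows, which outnumber the genes (27025), so they are unlike measures. The 6 matches are shown because they are the only ones found, and were chosen after their genes' values were seen. Capitals mark bases equal to the motif, and each match is written on the strand that carries it. Their positions are chr12:84038366-84038378 (-, Acot4), chr9:108662142-108662154 (+, Slc25a20), chr4:86670272-86670284 (+, Plin2), chr6:71199812-71199824 (-, Fabp1), chr5:17835947-17835959 (+, Cd36) and chr10:81092788-81092800 (-, Creb3l3).
Acot4: cGGcCAaAGGTCA
Slc25a20: AGGTgAaAGGTCg
Plin2: AGGTCAggGGTCc
Fabp1: AGGcCAtAGGTCA
Cd36: AaGTCAgAGGcCA
Creb3l3: AGGggAgAGGTCA
The genes of the first 3 rose and those of the last 3 did not pass, so that 3 of 14 targets that rose and had a window held a match. Fabp1 has the match with the fewest differing bases, 1, and Plin2 rose by 1.47 on the log2 scale.

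The promoter window of Ehhadh, the bifunctional enzyme described above, and 1 window of Acot3 that holds a single half-site are shown whole. They are examples of windows of risen genes with no DR1 match. The Ehhadh window is chr16:21787785-21788084 (minus strand). Acot3 has 2 windows, and the one shown is chr12:84051894-84052193 (plus strand). Capitals mark a single half-site (AGGTCA on either strand, in 16.3% of all windows, and counted again inside a DR1 match); Ehhadh has none and Acot3 has 1.
Ehhadh: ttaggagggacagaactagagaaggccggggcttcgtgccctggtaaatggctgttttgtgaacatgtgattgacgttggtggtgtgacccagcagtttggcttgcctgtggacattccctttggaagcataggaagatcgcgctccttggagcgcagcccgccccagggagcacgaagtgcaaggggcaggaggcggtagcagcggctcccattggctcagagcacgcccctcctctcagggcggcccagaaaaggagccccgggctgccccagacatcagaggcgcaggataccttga
Acot3: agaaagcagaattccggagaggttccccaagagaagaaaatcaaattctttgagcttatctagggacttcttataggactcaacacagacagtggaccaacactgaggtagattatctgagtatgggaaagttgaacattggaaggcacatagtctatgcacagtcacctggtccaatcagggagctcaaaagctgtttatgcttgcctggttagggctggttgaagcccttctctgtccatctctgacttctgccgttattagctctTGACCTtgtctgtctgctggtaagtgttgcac
Neither window held an E-box (CACGTG, 7.15% of windows) or a D-box (TTATGTAA with at most 1 differing base, 16.1% of windows), the motifs of clock factors. A match or its absence describes these letters in this window only.

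Some lipid storage genes changed, against 3.43% of all genes that rose and 3.54% that fell. Of 18 lipid droplet genes 4 rose and 0 fell (median 0.17). Plin2, the main droplet coat protein of hepatocytes, stood at 9.19, 9.21, 9.55 and 9.56 on HFD and 8.04, 7.76, 8.31 and 7.50 on RC (log2 fold change 1.47 ± 0.32 (SE), adjusted p = 0.00144). The groups did not overlap, and RC-203 was the lowest library. Mgll, which splits monoglycerides, and Fitm2, which helps droplets form, rose by 0.75 ± 0.16 and 0.84 ± 0.19 (SE, adjusted p = 0.0015 and 0.00187). Fitm1 rose by 1.15 ± 0.34 (SE, adjusted p = 0.0262), and its adjusted p was above 0.05 without HFD-202, HFD-203, RC-200, RC-201 or RC-203 (0.054 to 0.0995). When the 4 libraries that stood apart were left out, 0 of the 4 passed. Of 11 genes of triglyceride synthesis, Mogat1 and Agpat3 rose and Dgat2, the last step in storage triglyceride, fell by 0.58 ± 0.15 (SE, adjusted p = 0.00667), calls that were all lost when those 4 were left out.

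Genes that make lipids gave few calls. Of 25 genes of cholesterol synthesis and uptake 0 rose and 0 fell by limma (0 at an unadjusted p under 0.05, and 0 by limma with voom weights on recovered reads), with a median of -0.05, which was 0.12 without HFD-202 and 0.02 without the scaling factor. The lowest log2 fold change of the list was -0.48 and the highest 0.71. Of 20 genes of fatty acid synthesis, Thrsp and Pklr fell and 0 rose (median -0.16), against 3.54% and 3.43% of all genes. With the 4 libraries that stood apart left out, 0 passed and the median was 0.08. Pklr, liver pyruvate kinase, stood at 7.75, 8.32, 7.26 and 8.59 on HFD and 9.40, 9.44, 9.61 and 9.16 on RC (log2 fold change -1.42 ± 0.28 (SE), adjusted p = 3.53e-04). Thrsp, a regulator of fatty acid synthesis, stood at 8.59, 8.39, 5.16 and 8.58 on HFD and 10.05, 10.26, 9.76 and 10.75 on RC (log2 fold change -2.52 ± 0.65 (SE), adjusted p = 0.00876). HFD-202 was lowest for both, and without it the adjusted p for Thrsp was 0.135, so that 1 of the 20 passed. The enzymes Fasn, Acaca and Scd1 did not pass.

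Antioxidant genes of the NRF2 pathway rose in part. Of 11 measured genes 5 rose and 0 fell (median 0.38), against 3.43% and 3.54% of all genes. Gclc, which limits glutathione synthesis, stood at 8.80, 9.06, 9.54 and 8.82 on HFD and 7.87, 7.67, 7.94 and 7.33 on RC (log2 fold change 1.35 ± 0.23 (SE), adjusted p = 4.50e-05). Gsr, which recycles glutathione, stood at 6.65, 6.77, 6.86 and 6.84 on HFD and 6.07, 6.18, 6.31 and 6.10 on RC (log2 fold change 0.62 ± 0.11 (SE), adjusted p = 1.20e-04). Srxn1 rose by 0.94 ± 0.19 and Txnrd1 by 0.38 ± 0.09 (SE, adjusted p = 0.000548 and 0.00187). Groups did not overlap in these genes. Nqo1 also passed (adjusted p = 0.0341), but not without HFD-201, HFD-203 or any 1 of the RC libraries (0.053 to 0.155). With the 4 libraries that stood apart left out 1 of the 5 passed.

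Genes of drug metabolism went both ways, beside 3.43% of all genes higher and 3.54% lower. Of 46 CAR and PXR target genes 6 rose (Cyp2b13, Gstm1, Gstm4, Abcc3, Nr1i3 and Ephx1) and 4 fell (Cyp3a11, Cyp2c55, Ces2a and Slco1a4), with a median of 0.06. The counts were 2 higher and 2 lower with the 4 libraries that stood apart left out, and 9 higher and 4 lower without the scaling factor. Ephx1, a microsomal epoxide hydrolase, stood at 9.51, 9.53, 10.04 and 9.67 on HFD and 8.16, 8.28, 8.46 and 8.11 on RC (log2 fold change 1.44 ± 0.22 (SE), adjusted p = 6.08e-06). Abcc3, an export pump for conjugates, rose by 1.37 ± 0.25 (SE, adjusted p = 0.000125). Cyp2c55 stood at 1.06, 1.81, 0.28 and 1.30 on HFD and 3.47, 3.74, 3.92 and 4.17 on RC (log2 fold change -2.71 ± 0.40 (SE), adjusted p = 2.03e-06). Cyp3a11, an enzyme of drug and steroid oxidation, stood at 10.40, 10.53, 10.41 and 9.90 on HFD and 11.60, 11.81, 12.02 and 11.62 on RC (log2 fold change -1.45 ± 0.33 (SE), adjusted p = 0.00209). No HFD library reached the RC range in Cyp2c55 or Cyp3a11, and no RC library reached the HFD range in Ephx1. Gstm1 is a member of a family of close copies and had adjusted p = 0.0638 without HFD-202 and 0.0713 without RC-200.

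Bile acid genes gave 3 higher and 3 lower of 25 measured (median -0.06), against 3.43% and 3.54% of all genes. Cyp7a1, which starts the main route from cholesterol to bile acids and limits its rate, stood at 5.71, 5.56, 3.55 and 4.15 on HFD and 6.13, 8.14, 7.75 and 8.43 on RC (log2 fold change -2.87 ± 0.76 (SE), adjusted p = 0.0103). The groups did not overlap, with RC-200 the RC library nearest to the HFD range, and the adjusted p was 0.0667 without HFD-202 and 0.0541 without RC-203. The uptake carrier Slc10a1 fell by 0.62 ± 0.13 (SE, adjusted p = 0.000996) and the phospholipid exporter Abcb4 rose by 0.96 ± 0.15 (SE, adjusted p = 6.5e-06). Without HFD-202, and without RC-203, 1 of the 25 fell, and with the 4 libraries that stood apart left out 1 rose and 0 fell.

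**Figure D3:**
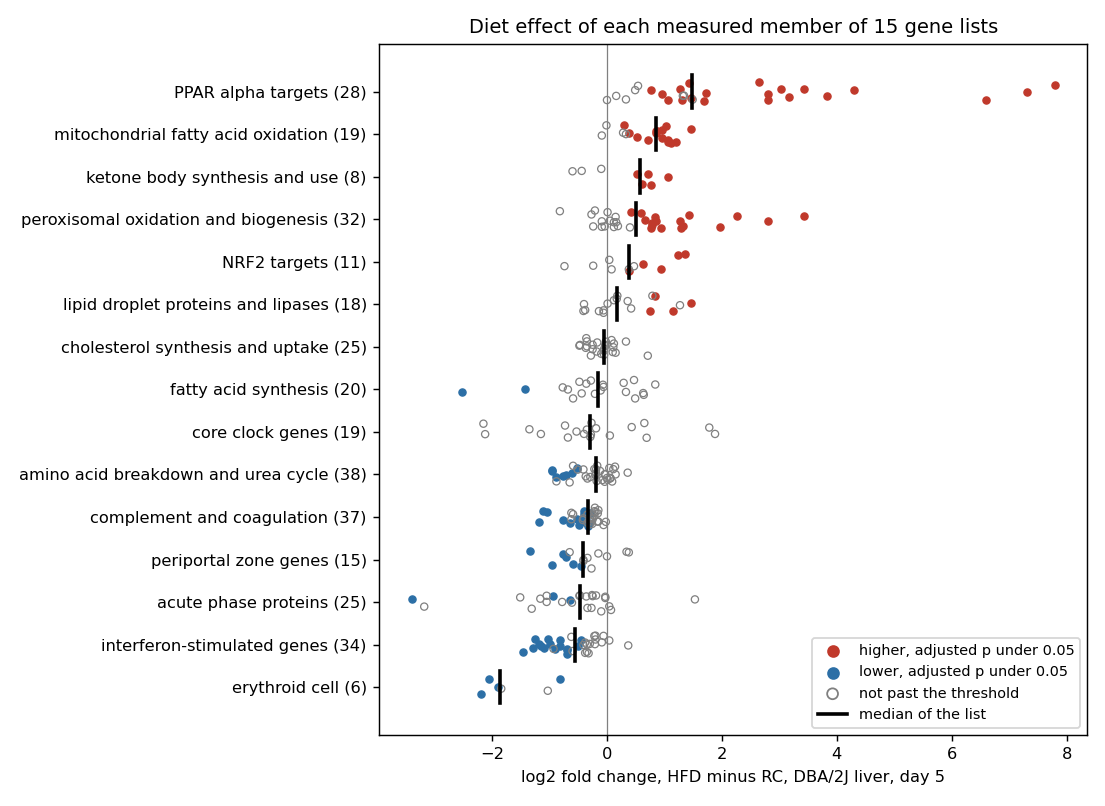
Log2 fold change on HFD (horizontal axis) of each measured gene of the named lists (rows, with the number measured); filled points passed the threshold, red higher and blue lower, open points did not, and the black bar is the list's median. The PPAR alpha targets have a median of 1.48 and the interferon-stimulated genes one of -0.55.

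Interferon-stimulated genes fell together. Of 34 measured genes 16 fell and 0 rose (median -0.55), against 3.54% of all genes lower. Irf7, the transcription factor that amplifies interferon production (ENSMUSG00000025498, chromosome 7, 141262706 to 141266481, GRCm38), stood at 4.21, 3.63, 3.85 and 4.08 on HFD and 5.11, 5.22, 5.33 and 5.28 on RC (log2 fold change -1.29 ± 0.17 (SE), adjusted p = 1.29e-07). Usp18, which removes the tag Isg15 from proteins, stood at 2.16, 1.59, 1.80 and 1.74 on HFD and 3.18, 3.14, 3.40 and 3.41 on RC (log2 fold change -1.46 ± 0.29 (SE), adjusted p = 4.02e-04). Ifit3, an antiviral protein of the IFIT family, stood at 2.74, 1.96, 2.06 and 1.97 on HFD and 3.15, 3.43, 3.31 and 3.40 on RC (log2 fold change -1.14 ± 0.23 (SE), adjusted p = 4.32e-04). Each RC library was above every HFD library in all 3 genes, and HFD-200 was the highest HFD library in all 3. The RNA sensor Ifih1 fell by 0.70 ± 0.11 (SE, adjusted p = 7.32e-06) and the immunoproteasome subunit Psmb8 by 0.82 ± 0.15 (SE, adjusted p = 0.000197). Stat2 and Irf9, which carry the interferon signal to the nucleus, were among the 18 that did not pass. Without any 1 library 12 to 15 of the 34 fell, and 5 fell with the 4 libraries that stood apart left out. Ifitm3, a restriction factor outside the list, stood at 7.64, 7.51, 7.60 and 7.78 on HFD and 8.56, 8.61, 8.68 and 8.76 on RC (log2 fold change -1.02 ± 0.13 (SE), adjusted p = 5.10e-08).

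Markers of immune cells were read beside these genes. Of 13 measured Kupffer cell and macrophage markers 0 passed, and their summed level was 162 ± 22.7 CPM (SD, n = 4) on HFD and 193 ± 22.9 CPM on RC, with overlapping groups. Of 10 T and NK cell markers only Cd4 was measured. It stood at -0.71, 0.22, 0.60 and 0.22 on HFD and 2.60, 2.54, 2.92 and 2.65 on RC (log2 fold change -2.60 ± 0.40 (SE), adjusted p = 6.08e-06), so that the groups lay at 0.613 to 1.52 CPM and 5.82 to 7.59 CPM. The part of immune cells in the interferon result was not tested. Of 10 sinusoidal endothelial, 10 stellate and 6 cholangiocyte markers, 0 passed. In these 4 marker lists limma gave 0 of 39 genes at an unadjusted p under 0.05, and voom weights gave 0 calls. The summed levels of 8 adipocyte markers did not overlap, at 3462 to 4079 CPM on HFD and 6333 to 7788 CPM on RC, and 0 of the 8 passed (1 at an unadjusted p under 0.05, 1 with voom weights). The highest of them, Car3, made up most of the sum in each library. Car3 stood at 11.94, 11.74, 11.98 and 11.94 on HFD and 12.70, 12.62, 12.92 and 12.74 on RC (log2 fold change -0.84 ± 0.41 (SE), adjusted p = 0.223). Of 3 gallbladder and intestinal markers 0 passed (2 at an unadjusted p under 0.05, 0 with voom weights). Their log2 fold changes went both ways, 2 positive and 1 negative, from -3.04 to 0.83. Their summed levels, again without overlap, were 160 ± 39.1 CPM on HFD and 91.6 ± 15 CPM on RC (SD, n = 4 each). The pancreatic acinar marker measured, Cela1, was at 31.3 to 47.5 CPM on HFD and 47.7 to 67.5 CPM on RC and did not pass, with limma or with voom weights. Car3 is also made by hepatocytes. The part of such cells in the results was not tested.

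Complement and coagulation proteins circulate in plasma, and many are made by hepatocytes. Of 37 complement and coagulation genes 14 fell and 0 rose (median -0.33), and all 37 had a negative log2 fold change (35 without the scaling factor or with quantile normalization). C2 stood at 4.19, 4.18, 4.37 and 4.29 on HFD and 5.20, 5.28, 5.32 and 5.42 on RC (log2 fold change -1.05 ± 0.13 (SE), adjusted p = 5.87e-08). C9, the pore-forming component, stood at 9.07, 9.09, 9.43 and 9.35 on HFD and 10.42, 10.27, 10.44 and 10.28 on RC (log2 fold change -1.12 ± 0.22 (SE), adjusted p = 2.77e-04). Coagulation factor F10 fell by 0.53 ± 0.09 (SE, adjusted p = 4.72e-05), and C1s1 and C1ra, proteases of the classical pathway, by 0.38 ± 0.07 and 0.40 ± 0.08 (SE, adjusted p = 0.000239 and 0.000325). For these 5 genes the groups did not overlap. The lower share of reads in the 20 highest genes on HFD, given above, moved with this result, and its part was not tested. Without the scaling factor 13 of the 37 fell with a median of -0.26, and 5 fell with the 4 libraries that stood apart left out.

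Acute phase proteins had a median of -0.47, with 3 of 25 called lower, Saa1, Hpx and Serpina3k. Of the 25, 22 had a negative log2 fold change. The diets did not overlap for 13 lower and 1 higher gene, against 8.90% and 9.11% of all genes. The summed level of the 25 was 31605 to 38235 CPM on HFD and 46350 to 53236 CPM on RC, without overlap. Saa1 stood at 3.43, 2.68, 2.93 and 3.52 on HFD and 6.28, 5.25, 4.65 and 9.97 on RC (log2 fold change -3.40 ± 1.08 (SE), adjusted p = 0.0418), and its adjusted p was 0.0612 to 0.306 without any 1 HFD library, RC-200 or RC-203, and 0.0722 with voom weights. Hpx, which binds haem, stood at 11.10, 10.93, 10.91 and 11.06 on HFD and 11.85, 11.71, 11.82 and 12.37 on RC (log2 fold change -0.94 ± 0.29 (SE), adjusted p = 0.0333). RC-203 was the highest library for both, and without it Serpina3k alone of the 3 passed. Without HFD-201 0 of the 25 passed, and without HFD-202, HFD-203 or RC-200 1 of them did. When the 4 libraries that stood apart were left out 0 passed, whereas 10 were called lower and 1 higher in a fit of only the 24 DBA/2J or only the 8 libraries. Serpina3k and Saa1 belong to families of close copies. Of 10 hepatocyte markers 4 fell, Serpina1c by 1.02 ± 0.17 (SE, adjusted p = 3.35e-05), Cps1, Trf and Asgr1, a count that was 1 with the 4 libraries that stood apart left out. Of 22 hepatokines 4 fell: Ahsg by 0.75 ± 0.14 (SE, adjusted p = 0.000124), Igf1, Enho and Lect2, a count that was 2 without RC-201 or without RC-203 and 1 with the 4 left out. The share of all genes that fell, 3.54%, stands beside these counts of acute phase, hepatocyte and hepatokine genes.

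Genes of the periportal zone, the rim of the lobule where blood enters and urea is made, were lower. The shares over all genes were 3.54% lower and 3.43% higher. Of 15 such genes 6 fell and 0 rose (median -0.41; 1 rose without the scaling factor), and of 38 genes of amino acid breakdown and the urea cycle 7 fell and 0 rose (median -0.19). Ass1, a urea cycle enzyme in both lists, stood at 9.97, 10.54, 9.59 and 10.21 on HFD and 10.94, 11.02, 10.99 and 11.16 on RC (log2 fold change -0.95 ± 0.22 (SE), adjusted p = 0.0037). Cps1, which starts the cycle, stood at 11.10, 11.78, 11.06 and 11.18 on HFD and 11.86, 12.20, 12.10 and 12.04 on RC (log2 fold change -0.77 ± 0.20 (SE), adjusted p = 0.00806). HFD-202 was the lowest library for both and HFD-201 the highest of the HFD libraries. Gnmt, which uses up methyl groups on glycine, stood at 9.51, 9.86, 9.37 and 9.49 on HFD and 10.42, 10.57, 10.46 and 10.56 on RC (log2 fold change -0.95 ± 0.20 (SE), adjusted p = 9.43e-04). Cyp2f2 and Aldh1b1 fell by 0.60 ± 0.13 and 1.34 ± 0.30 (SE, adjusted p = 0.00203 and 0.00204). The urea cycle genes Otc, Arg1 and Nags were among the 31 of the 38 that did not pass. When the 4 libraries that stood apart were left out, 1 of the 15 and 1 of the 38 fell. Of 14 pericentral genes 1 rose (Gstm1) and 2 fell (Slc1a2 and Rhbg), against 3.43% and 3.54% of all genes. The 2 that fell were 0 without HFD-200, HFD-202, HFD-203, RC-201 or RC-203 and 1 without RC-200 or RC-202, and Gstm1 did not pass without HFD-202 or RC-200, while 2 pericentral genes rose without HFD-203. None of the 14 passed with the 4 libraries that stood apart left out.

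Several further lists gave few or no calls, beside 3.43% of all genes called higher and 3.54% called lower. Of 28 unfolded protein response genes, 19 core clock genes, 15 glucocorticoid-induced genes, 21 extracellular matrix genes and 9 mitochondrially encoded genes, 0 passed in either direction by limma. Of these 92 genes 4 had an unadjusted p under 0.05, and voom weights gave 0 calls. The core clock list had a median of -0.29 (13 negative and 6 positive), and its members Dbp and Ciart carried the low values of HFD-202 given above. The summed level of the 19 clock genes did not overlap, at 1156, 1020, 719 and 1074 CPM on HFD and 1227 to 1271 CPM on RC. Of the single clock genes, 2 were lower without overlap and 0 higher, against 8.90% and 9.11% of all genes. Of 16 immediate early genes Egr1 fell, from 5.20 ± 0.43 (SD, n = 4) on RC to 2.11 ± 0.41 (SD, n = 4) on HFD (log2 fold change -3.09 ± 0.76 (SE), adjusted p = 0.00568). Of 26 nuclear-encoded respiratory chain genes 1 rose, the uncoupling protein Ucp2, by 1.30 ± 0.31 (SE, adjusted p = 0.00485), a share near the 3.43% of all genes. Neither Egr1 nor Ucp2 passed when the 4 libraries that stood apart were left out. Of 21 major urinary protein genes, which are near-identical copies, 3 fell, a count that was 0 without HFD-201, RC-200, RC-201 or RC-203 and 1 without HFD-203 or with the 4 left out.

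Of 6 measured red blood cell genes 4 fell and 0 rose. Hbb-bt, a beta-globin gene, stood at 2.37, 2.89, 3.00 and 2.92 on HFD and 5.49, 5.32, 4.08 and 5.08 on RC (log2 fold change -2.20 ± 0.54 (SE), adjusted p = 0.00542). Hbb-bs stood at 5.62, 5.93, 6.31 and 6.00 on HFD and 8.75, 8.43, 6.89 and 8.04 on RC (log2 fold change -2.06 ± 0.52 (SE), adjusted p = 0.00735), and Hba-a1 at 5.07, 5.97, 6.07 and 6.08 on HFD and 8.24, 7.97, 7.04 and 7.50 on RC (log2 fold change -1.89 ± 0.46 (SE), adjusted p = 0.00567). RC-202 was the lowest RC library for all 3 and still above each HFD library. Alas2, the haem synthesis enzyme of red cell precursors, had a level of 8.02 ± 0.10 (SD, n = 4) on RC against 7.20 ± 0.22 (SD, n = 4) on HFD, with RC-203 the RC library nearest to the HFD range (log2 fold change -0.82 ± 0.18 (SE), adjusted p = 0.00128). The summed level of the 6 measured markers was 277 ± 46.3 CPM (SD, n = 4) on HFD, with 335 CPM the highest, and 802 ± 222 CPM on RC, with 542 CPM the lowest. The globin genes are close copies of each other. With the 4 libraries that stood apart left out 1 of the 4 passed, and the median of the list was -1.46 against -1.87. How much of these reads came from blood in the tissue was not tested.

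The same genes were read in the other tissues from the libraries with the same title numbers. In soleus muscle 2 genes were higher and 4 lower of 13637 tested (0.0440%), and the 4 were Hbb-bt, Alas2, Hbb-bs and the potassium channel gene Kcng4. Hbb-bt stood at 3.17, 3.53, 3.64 and 3.67 on HFD and 5.46, 5.83, 4.93 and 4.37 on RC. The groups did not overlap (log2 fold change -1.65 ± 0.28 (SE), adjusted p = 0.00219). In visceral adipose tissue 1 gene of 16541 passed (0.00605%), the kinase gene Dyrk2. Hbb-bs stood there at 6.87, 6.10, 7.50 and 9.21 on HFD and 10.74, 11.09, 8.37 and 8.80 on RC. Its groups overlapped (log2 fold change -2.33 ± 0.76 (SE), adjusted p = 0.785). Genes with an unadjusted p under 0.05 numbered 2624 in liver, 1891 in soleus and 668 in adipose tissue. Cyp4a14 had log2 fold changes of -4.17 ± 1.96 in soleus and 2.85 ± 1.66 in adipose tissue (SE, adjusted p = 0.331 and 0.785), and Ehhadh of -0.76 ± 0.50 and -0.27 ± 0.52 (adjusted p = 0.487 and 0.839). In soleus Cyp4a14 lay at -3.74, the level of 0 reads, in HFD-202, HFD-203 and RC-201. In adipose tissue HFD-200 stood at 6.43 and the other HFD libraries at -0.65, 0.32 and -3.81, the last being 0 reads.

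**Figure D4:**
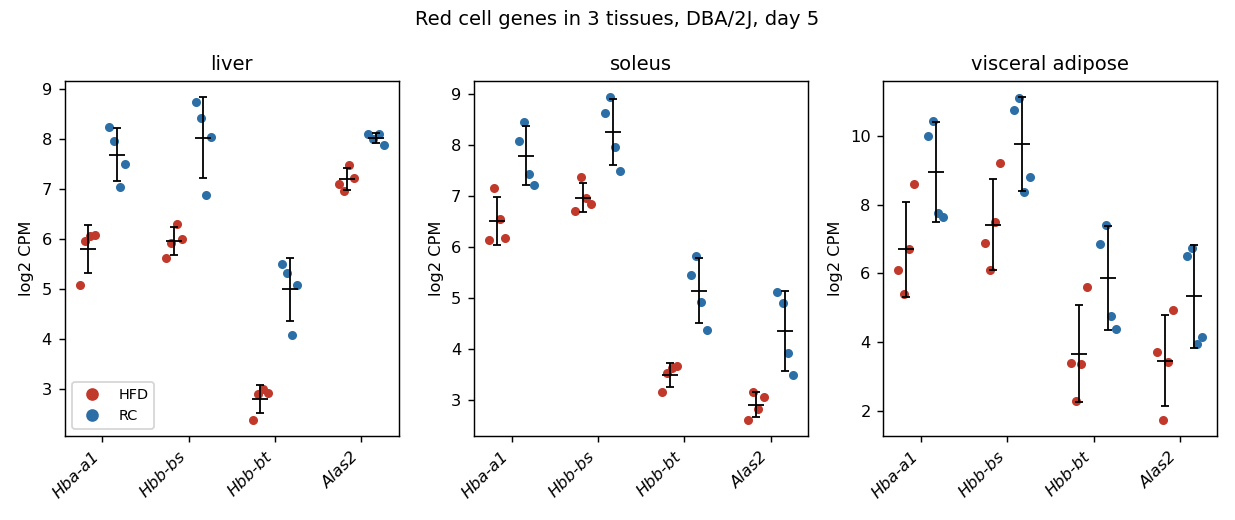
Level (log2 CPM, vertical axis) of 4 red cell genes in liver, soleus and visceral adipose tissue of DBA/2J mice on day 5; red points are HFD and blue points RC libraries, 4 each, with the mean ± SD in black. Hbb-bt separates the diets in liver and soleus and overlaps in adipose tissue.

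Large falls were also found in genes of various other roles. Serpina12, the secreted serpin vaspin, stood at 4.74, 3.41, 4.51 and 4.47 on HFD and 6.92, 6.59, 6.69 and 6.04 on RC (log2 fold change -2.28 ± 0.45 (SE), adjusted p = 4.10e-04). Slc22a7, an organic anion transporter, stood at 4.67, 5.09, 5.00 and 4.76 on HFD and 6.66, 6.82, 6.96 and 6.61 on RC (log2 fold change -1.88 ± 0.38 (SE), adjusted p = 4.73e-04). Dnaic1, a ciliary dynein chain, stood at 0.75, 0.97, 2.45 and 0.68 on HFD and 3.25, 3.52, 3.79 and 3.56 on RC (log2 fold change -2.32 ± 0.63 (SE), adjusted p = 0.0128), with HFD-202 nearest to the RC range. Selenbp2 fell by 2.08 ± 0.55 (SE, adjusted p = 0.0112, and 0.0504 without HFD-201). Upp2, a uridine phosphorylase, and Lrtm1 fell by 2.31 and 2.20 and had adjusted p of 0.106 and 0.204 without HFD-202, and Lrtm1 0.0728 without RC-200 and 0.0596 without RC-203. Among other genes that rose, Serpina7, thyroxine-binding globulin, rose by 2.44 ± 0.47 (SE, adjusted p = 0.000312) and Chrna2, a nicotinic receptor subunit, by 2.55 ± 0.27 (SE, adjusted p = 9.19e-10). Of the 30 genes with the largest changes, 14 did not pass with the 4 libraries that stood apart left out, among them Egr1, Dnaic1, Slc22a7 and the globin genes, and 0 changed direction.

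The diet response was then compared with that on other days in DBA/2J. On day 13, 241 genes were called (1.91%), of which 25 were called in the same direction on day 5 (2.84% of the day 5 genes, 10.4% of the day 13 genes) and 2 in the opposite one. On day 33, 2005 genes were called (15.9%), and 479 shared the direction (54.5% of the day 5 genes, 23.9% of the day 33 genes), with 1 opposite. No library of another day enters the day 5 fold changes. The difference itself, day 5 minus day 13, passed for 288 genes (2.28%). Of these, 102 were genes that rose on day 5 and had a more positive change then, and 109 were genes that fell and had a more negative one. The 288 were 181 without HFD-201 or without HFD-202, 189 without RC-201, 160 without RC-203 and 6 with the 4 libraries that stood apart left out. Day 5 minus day 33 passed for 20 genes (0.159%). The 20 were 5 without HFD-200, 3 without HFD-201, 9 without RC-200, 6 without RC-201, 13 without RC-202, 7 without RC-203 and 2 with the 4 libraries left out.

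For Ehhadh the log2 fold changes on days 5, 13 and 33 were 3.43, 0.13 and 2.62. The day 5 value exceeded that of day 13 (difference 3.30 ± 0.52 (SE), adjusted p = 1.81e-04), and its difference from day 33 did not pass (difference 0.81 ± 0.52 (SE), adjusted p = 0.599). Among the 28 PPAR alpha targets, 11 differed between days 5 and 13, all more positive on day 5, and 0 between days 5 and 33 by limma (6 at an unadjusted p under 0.05, 0 with voom weights, and 5 in a fit of the 24 DBA/2J libraries alone). When the 4 libraries that stood apart were left out, 1 of the 28 differed between days 5 and 13. The targets' medians were 1.48, 0.50 and 1.10 on days 5, 13 and 33, with 20, 2 and 17 genes called higher. Abcc3 turned over, from 1.37 on day 5 to -0.91 on day 13 (difference 2.29 ± 0.36 (SE), adjusted p = 1.81e-04). Of the 34 interferon-stimulated genes 11 differed between days 5 and 13, all more negative on day 5, where the medians were -0.55 and 0.19, and 1 differed with the 4 libraries that stood apart left out. On day 33 their median was -0.37, with 11 called lower and 0 higher, beside 15.9% of all genes called in either direction. Between days 5 and 33, 0 of the 34 differed by limma (4 at an unadjusted p under 0.05, 0 with voom weights). Ifitm3 had -1.02 on day 5 and 0.13 on day 13 (difference -1.15 ± 0.18 (SE), adjusted p = 1.81e-04). Ephx1, Aox1 (an aldehyde oxidase) and Hgfac (a protease that activates hepatocyte growth factor) were the other genes of smallest p, with differences of 1.87, 1.63 and -0.99.

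Against day 33 the genes of smallest p were Atf5, Rsrp1, Ccdc141, Cars, Mfsd2a and Csnk1e. Atf5, a stress-response transcription factor, had a change of 0.26 on day 5 and 1.66 on day 33 (difference -1.40 ± 0.28 (SE), adjusted p = 0.0196). Mfsd2a, a lipid transporter, had 0.90 and -2.20 (difference 3.10 ± 0.66 (SE), adjusted p = 0.0239). Each of the 6 calls was lost when at least 1 library was left out, and all 6 were lost without HFD-201. The 25 cholesterol genes, with 0 called on day 5 and 20 lower on day 33 (medians -0.05 and -1.14), had 0 members past the threshold for the difference between these days by limma (19 at an unadjusted p under 0.05, and 0 with voom weights). In a fit of the 24 DBA/2J libraries alone 14 of the 25 passed, all less negative on day 5, with quantile normalization 1 did, and without HFD-202 1 did.

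**Figure D5:**
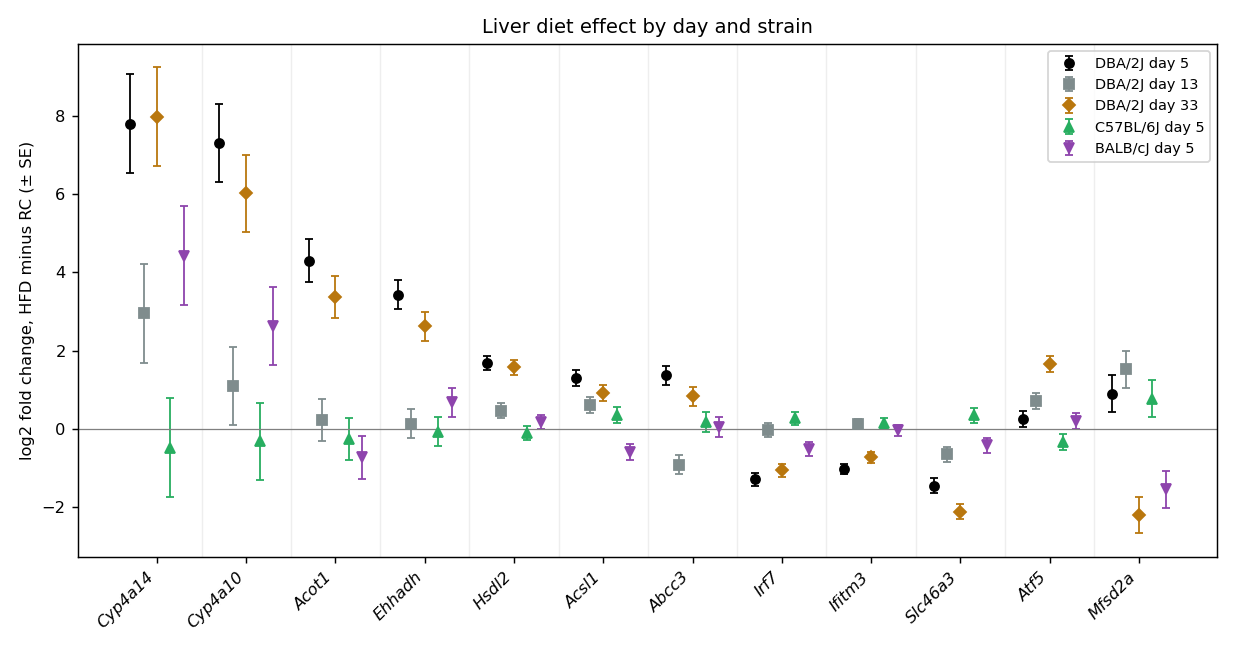
Log2 fold change on HFD (vertical axis, ± SE) of 12 genes in DBA/2J liver on days 5, 13 and 33 and in C57BL/6J and BALB/cJ liver on day 5 (symbols). Ehhadh is at 3.43, 0.13 and 2.62 in DBA/2J on the 3 days in order, -0.07 in C57BL/6J and 0.68 in BALB/cJ.

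Livers of the other strains were compared on the same day. In C57BL/6J, 17 genes were called on day 5 (0.135%), of which 5 shared the direction with DBA/2J (0.569% of the DBA/2J genes, 29.4% of the C57BL/6J genes) and 1 was opposite. In BALB/cJ, 1574 genes were called (12.5%), and 171 shared the direction (19.5% and 10.9%) while 17 were opposite. The diet response differed between DBA/2J and C57BL/6J for 352 genes (2.79%), of which 276 were called in DBA/2J, and between DBA/2J and BALB/cJ for 528 genes (4.19%), of which 193 were called in DBA/2J. The 352 were 184 without HFD-202 and 38 with the 4 libraries that stood apart left out. The 528 were 268 without HFD-202, 294 without RC-203 and 24 with the 4 left out. Reads of all strains were mapped to GRCm38, a C57BL/6J genome, and its part in these differences was not tested.

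Of the 28 PPAR alpha targets, 16 had a more positive response in DBA/2J than in C57BL/6J and 14 a more positive one than in BALB/cJ, with 0 more negative in either. The list's median was 1.48 in DBA/2J, -0.03 in C57BL/6J and 0.20 in BALB/cJ, and 0 of the 28 passed in C57BL/6J (0 at an unadjusted p under 0.05 by limma, 0 with voom weights). With the 4 libraries that stood apart left out, 4 of the 28 differed from C57BL/6J and 4 from BALB/cJ. Ehhadh differed from C57BL/6J by 3.50 and from BALB/cJ by 2.75 (SE 0.52 for both, adjusted p = 4.64e-05 and 0.00119). Hsdl2 had a change of 1.68 in DBA/2J, -0.10 in C57BL/6J and 0.18 in BALB/cJ (difference 1.78 ± 0.25 (SE), adjusted p = 2.34e-05 against C57BL/6J). Acot1 had 4.30 in DBA/2J and -0.73 in BALB/cJ (difference 5.03 ± 0.76 (SE), adjusted p = 6.27e-05), and Acsl1 had 1.30 and -0.59 (difference 1.89 ± 0.29 (SE), adjusted p = 6.27e-05). Cyp4a14 had 7.80 in DBA/2J, -0.48 in C57BL/6J and 4.43 in BALB/cJ. Its difference passed against C57BL/6J (difference 8.28 ± 1.78 (SE), adjusted p = 0.00344) and not against BALB/cJ (difference 3.37 ± 1.78 (SE), adjusted p = 0.265).

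Interferon-stimulated genes differed in the other direction, with 11 of 34 more negative in DBA/2J than in C57BL/6J and 10 more negative than in BALB/cJ. The 11 were 6 without HFD-202, the 10 were 4 without HFD-202, and with the 4 libraries that stood apart left out they were 4 and 0. Irf7 had a change of -1.29 in DBA/2J, 0.27 in C57BL/6J and -0.51 in BALB/cJ (difference -1.57 ± 0.24 (SE), adjusted p = 4.65e-05 against C57BL/6J). Psmb8 had -0.82, 0.59 and -0.01 (difference -1.41 ± 0.22 (SE), adjusted p = 5.06e-05 against C57BL/6J). Slc46a3, a lysosomal transporter, had -1.45, 0.35 and -0.42 (difference -1.79 ± 0.27 (SE), adjusted p = 4.64e-05 against C57BL/6J). Ephx2 (a soluble epoxide hydrolase, chromosome 14, 66084374 to 66124500) and Chrna2 (chromosome 14, 66135039 to 66152948) lie side by side. Their differences from BALB/cJ were 1.08 ± 0.17 and 2.67 ± 0.38 (SE, adjusted p = 6.27e-05 and 3.36e-05). Errfi1, an inhibitor of the EGF receptor, had 0.12 in DBA/2J and -1.89 in BALB/cJ (difference 2.01 ± 0.33 (SE), adjusted p = 1.86e-04).

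Cyp2c55, Ces2a and Cyp3a11 fell in DBA/2J on day 5 and had negative log2 fold changes in the other comparisons shown as well. Cyp3a11 had -1.45, -2.45 and -3.14 on days 5, 13 and 33 in DBA/2J, -1.61 in C57BL/6J and -2.24 in BALB/cJ on day 5. Ces2a, a carboxylesterase, had -1.12, -0.89, -1.31, -1.03 and -1.85 in the same order, and Cyp2c55 -2.71, -1.74, -3.35, -2.69 and -1.64. For the 46 drug metabolism genes, 6 differed from day 13, 5 from C57BL/6J and 8 from BALB/cJ, all more positive in DBA/2J on day 5, and 0 differed from day 33 by limma (14 at an unadjusted p under 0.05, 0 with voom weights, and 5 in a fit of the 24 DBA/2J libraries alone). The 8 were 4 without HFD-201, HFD-202 or RC-203, 5 without RC-200 or RC-201, and 0 with the 4 libraries that stood apart left out, which also left 1 of the 6 and 1 of the 5.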

How the data were processed

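The authors deposited 1 table of log2 CPM values per tissue, with a column per library. Per the labels' protocols the libraries were stranded mRNA libraries, and the submitters' processing notes name STAR 2.5.3a, edgeR and GRCm38. Which tool did the counting, and on which annotation, is not given in the sources used here. In the liver table the header is 1 cell short, so each title names the column to its right. Low values in the deposited log2 CPM columns were whole multiples of 1 read (100% of values under 2000 reads, within 0.05 of a whole read), after a prior count of 0.25 reads in liver and 2 in soleus and adipose tissue, and 0 reads lie at -6.63 in liver. No pseudocount was added here.

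Levels were fitted with limma 3.58.1 in R 4.3.3 (group means of 18 groups of 4 liver libraries, variance trend, 54 residual degrees of freedom). A filter of log2 CPM 0 in at least 4 libraries left out 0 of 12611 genes, and 12602 matched a GENCODE symbol. Soleus and adipose tables were fitted separately in the same way, so levels are not compared between tissues. Limma with voom weights on the recovered reads called 943 genes. The fits were tested on simulated data. Genes were named by rule: the 15 highest and 15 lowest fold changes (adjusted p under 0.05, diets not overlapping, mean log2 CPM of at least 2, no predicted symbol), up to 5 members of smallest p from each list, and the 6 of smallest p per difference between days or strains. Further list members and single genes were chosen after their values were seen. The alternatives tried were the filter, the normalization, the variance model, the prior count, the libraries fitted, a replicate block and leaving out each library. The comparison, the gene lists and the rules were chosen with earlier results of these data known, so the lists are not independent evidence of a direction. Some genes of the lists are counted but not reported by name here.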

Additional observations from a re-analysis of the deposited data

Results flagged for a closer look

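For 60 genes, most of them described above, the 4 HFD and the 4 RC libraries were each searched for a single library far from the other 3 (a gap to the nearest library that takes up most of the group's range). Of 120 groups of 4, 15 had one. Chance alone gives about 1 in 20 independent groups, but some of these genes were described because a library stood apart and all groups hold the same 8 libraries, so the 15 are not compared with that rate. HFD-202 was the library in 6 of the 15, RC-203 in 4, RC-200 in 2, and HFD-200, HFD-201 and RC-202 in 1 each. All levels in this paragraph and the next are log2 CPM.

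In HFD-202, the clock-driven factor Dbp was at 0.92 (others 6.49 to 7.44), Thrsp at 5.16 (others 8.39 to 8.59) and Upp2 at 4.71 (others 7.43 to 7.88), each the lowest of its group. The same library was the highest for Dnaic1 at 2.45 (others 0.68 to 0.97), Cars at 5.53 (others 5.12 to 5.13) and Ephx2 at 10.84 (others 10.35 to 10.43). RC-203 was the highest RC library for Saa2 at 8.78 (others 2.21 to 3.30), Acot3 at 2.32 (others 0.59 to 0.84), Vnn1 at 5.10 (others 4.49 to 4.59) and Slc46a3 at 6.56 (others 6.29 to 6.33). RC-200 was the highest for the fatty acid carrier Fabp4 of adipocytes and macrophages at 7.21 (others 2.06 to 2.60), and the lowest for Sqle, a cholesterol synthesis enzyme, at 6.06 (others 6.50 to 6.57). Hba-a1 was lowest in HFD-200 at 5.07 (others 5.97 to 6.08), Ccdc141 highest in HFD-201 at 4.12 (others 3.05 to 3.13) and Atf5 highest in RC-202 at 8.89 (others 8.36 to 8.39).

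The diet response differed between days or strains, by limma's test of the difference, for these genes among others. Day 5 minus day 13 gave log2 differences of 3.30 for Ehhadh, 2.29 for Abcc3, 1.87 for Ephx1, 1.63 for Aox1, -0.99 for Hgfac and -1.15 for Ifitm3. Day 5 minus day 33 gave 3.10 for Mfsd2a, 1.52 for Rsrp1, 1.48 for Ccdc141, 0.93 for the kinase gene Csnk1e, -0.98 for Cars and -1.40 for Atf5. For 3 of these, Atf5, Ccdc141 and Cars, a single library on day 5 also stood apart. DBA/2J minus C57BL/6J gave 3.50 for Ehhadh, 1.78 for Hsdl2, -1.18 for Ifitm3, -1.41 for Psmb8, -1.57 for Irf7 and -1.79 for Slc46a3. DBA/2J minus BALB/cJ gave 5.03 for Acot1, 2.67 for Chrna2, 2.01 for Errfi1, 1.89 for Acsl1, 1.50 for Hsdl2 and 1.08 for Ephx2.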

How the results depend on the processing

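The 879 genes called on day 5 were 630 to 943 with a stricter or no filter, quantile normalization, other variance models, a prior count of 2 or voom weights. They were 1446 (709 higher, 737 lower) with only the 24 DBA/2J libraries, 1313 (654 higher) with only the 8, 1439 (770 higher) with a replicate block in the 8, and 1041 (709 higher) with no scaling factor. Leaving out 1 library gave 547 to 818, with 268 to 423 higher and 275 to 395 lower. Leaving out all 4 libraries that stood apart gave 141 (81 and 60). Day 5 minus day 13 (288) gave 851 with the 24 libraries, 160 to 262 without 1 library and 6 with the 4 left out. Day 5 minus day 33 (20) gave 5 with the stricter filter, 39 with quantile normalization, 193 with the 24 libraries, 13 with no scaling factor, 3 to 23 without 1 library and 2 with the 4 left out. The differences from C57BL/6J (352) and BALB/cJ (528) were 184 to 361 and 268 to 521 without 1 library, and 38 and 24 with the 4 left out. The deviations of same-numbered libraries of the 2 diets had correlations of 0.59, 0.29, 0.08 and 0.05, in the order of the library numbers. Not every library correlated best with its own number. With only 4 such pairs, these values cannot decide whether same-numbered libraries share more than a number. A replicate block over all 72 libraries gave 872 genes on day 5 (428 higher, 444 lower), 19 for day 5 minus day 33, and 333 and 479 for the strains. Of 230 named genes, 116 passed. Of these, 66 were lost with the 4 libraries left out, 23 without HFD-202 and 20 without RC-203, and 0 changed direction in any setting. Leaving out the 4 libraries and the scaling factor were chosen after seeing the data. Differences between days were not run in the fits of 8 libraries, nor strain differences with the 24, and no alternatives were run for soleus and adipose tissue. The cause of these changes was not tested.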

Other observations

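Some genes of glucose handling were lower on HFD. Of 18 gluconeogenesis and fasting genes 2 fell and 0 rose (median -0.28), beside 3.54% and 3.43% of all genes. Fbp1, which removes a phosphate from fructose bisphosphate on the way to glucose, stood at 9.72 ± 0.22 log2 CPM (SD, n = 4) on HFD and 10.23 ± 0.07 on RC. HFD-202 was the lowest library at 9.46, and the groups did not overlap (log2 fold change -0.51 ± 0.13 (SE), adjusted p by limma = 0.00617, and 0.0547 without HFD-202). Slc37a4, which carries glucose phosphate into the endoplasmic reticulum, was the other gene that fell, with a change of -0.73 ± 0.19 (SE, adjusted p = 0.00797). Pck1 and G6pc, the first and last enzymes of the pathway, had changes of -0.27 ± 0.33 and 0.21 ± 0.40 (SE, adjusted p = 0.685 and 0.817), with overlapping groups. Of 27 genes of glucose use and glycogen, Pklr, Khk and the glucose carrier Slc2a2 fell and Ldha rose. Khk, the kinase of fructose, stood at 8.45, 8.52, 8.31 and 8.75 on HFD and 9.17, 9.29, 9.14 and 9.23 on RC (log2 fold change -0.70 ± 0.18 (SE), adjusted p = 0.00787). Leaving out HFD-203 gave 5 lower of the 27, leaving out HFD-202, RC-201, RC-202 or RC-203 gave 2, and Ldha passed only with all 8 libraries, without HFD-201 or without RC-202 among the fits that left out libraries. With the 4 libraries that stood apart left out, 0 genes of either list passed.

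Of 25 lipoprotein genes 1 was higher and 3 were lower (median -0.14), beside 3.43% and 3.54% of all genes; the share of higher genes is near that of all genes. Mttp, which loads lipid onto apolipoprotein B, stood at 8.56, 8.67, 8.77 and 8.76 log2 CPM on HFD and 8.29, 8.44, 8.45 and 8.24 on RC (log2 fold change 0.33 ± 0.09 (SE), adjusted p by limma = 0.0127). Its groups did not overlap. Apoc3, an inhibitor of triglyceride clearance, and Apof fell by 0.62 ± 0.18 and 0.52 ± 0.10 (SE, adjusted p = 0.0205 and 3.53e-04), and Saa1 was the other gene called lower. Apob and Apoa1 were among the 21 that did not pass. Without HFD-202, and without RC-203, 1 of the 25 fell and 0 rose, and with the 4 libraries that stood apart left out 0 passed.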
